A study of Mus musculus with 6 samples.

Results

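The cell cycle genes followed here are 35 genes chosen by symbol from the 32285 genes of the deposited matrices, and all 35 were found, each as 1 protein-coding gene. They fall into 3 regulators of the G1 phase (Ccnd1, Ccne1, Cdkn1a), 10 genes of DNA replication (Pcna, Mcm2 to Mcm7, Rrm1, Rrm2, Tyms), and 20 genes of mitosis. The last 2 are Hmgb2 and Stmn1, a chromatin and a tubulin-binding protein whose RNA is abundant in dividing cells. RNA was captured from frozen mouse kidney sections on Visium slides, whose barcoded spots each cover several cells, in 6 libraries with 1 library per group. Early treated 5m AS is an Alport syndrome kidney (strain B6.Cg-Col4a5tm1Yseg) labelled with hEV treatment, as is the Late treated 5m AS kidney. 5m AS and 2m AS are kidneys of the same strain with no treatment label, at 5 and at 2 months. WT Female & Hetero Female combines wild-type and heterozygous females in 1 library (the mixed library), and WT is a kidney labelled B6C57. Alport syndrome is an inherited disease of the collagen IV of the glomerular basement membrane. The dose and dates of treatment, the meaning of early and late, the age of the WT animal and the number of animals behind each library are not given in the sources used here.

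A dividing cell passes from G1, where cyclin D1 and cyclin E with their kinases start the cycle and the inhibitor p21 (Cdkn1a) can hold it, into S phase. There the Mcm helicase unwinds DNA and the clamp Pcna keeps the polymerases in place. The cell then goes through G2 into mitosis under Cdk1 and cyclin B. Replication genes are mostly driven by E2F factors at the G1 to S border, and mitosis genes by B-Myb and FoxM1 later in the cycle. In the healthy adult kidney few tubule cells divide. After injury tubule cells can re-enter the cycle, and arrest with high p21 is known from damaged tubules.

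The promoters of the members carry the letters by which these phases are usually told apart, and 5 are shown because their genes stand for the groups compared below. RefSeq promoters (GRCm38.p6, from 250 bases before to 50 bases after the start) were found for 28 of the 35 members. Searched on both strands, the cell cycle homology region (CHR, TTTGAA or TTCGAA) occurred in 13 of 16 mitosis promoters (81.2%), in 2 of 9 replication promoters (22.2%) and in 19.4% of 27025 mouse promoters. An E2F motif (TTTCCCGC, TTTGGCGC, TTTGCCGC, TTTCGCGC, TTCCCGCC or TTGGCGCC) occurred in 2 of 16 mitosis promoters (12.5%), in 5 of 9 replication promoters (55.6%) and in 4.53% of all promoters. CCAAT, the box bound by NF-Y, did not separate the groups, with 87.5% of mitosis and 88.9% of replication promoters against 37.9% of all. Some E2F spellings overlap each other, as in Mcm6, or a CCAAT box, as in Ccnb1, and a match in letters is a description and not a measured site. The 150 bases before the start are printed 5′ to 3′ on the gene's strand, with each of these motifs in capitals on either strand (TTCAAA is CHR and ATTGG is CCAAT read from the other strand):
Ube2c (mitosis, chr2:164769779-164769928, plus strand): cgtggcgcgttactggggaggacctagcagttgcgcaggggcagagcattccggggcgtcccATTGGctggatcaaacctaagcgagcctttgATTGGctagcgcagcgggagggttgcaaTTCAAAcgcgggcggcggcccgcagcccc
Cdk1 (mitosis, chr10:69352913-69353062, minus strand): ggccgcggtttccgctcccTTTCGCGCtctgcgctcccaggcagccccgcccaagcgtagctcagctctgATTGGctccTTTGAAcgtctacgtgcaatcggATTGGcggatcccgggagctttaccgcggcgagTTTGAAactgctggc
Mcm6 (replication, chr1:128359706-128359855, minus strand): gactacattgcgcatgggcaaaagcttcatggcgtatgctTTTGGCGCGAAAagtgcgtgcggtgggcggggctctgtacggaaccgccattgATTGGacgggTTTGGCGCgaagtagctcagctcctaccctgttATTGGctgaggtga
Rrm1 (replication, chr7:102441545-102441694, plus strand): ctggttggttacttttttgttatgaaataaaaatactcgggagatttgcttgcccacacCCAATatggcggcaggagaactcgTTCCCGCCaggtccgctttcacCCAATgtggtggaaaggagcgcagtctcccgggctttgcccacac
Cdkn1a (G1 inhibitor, none of the motifs, chr17:29090829-29090978, plus strand): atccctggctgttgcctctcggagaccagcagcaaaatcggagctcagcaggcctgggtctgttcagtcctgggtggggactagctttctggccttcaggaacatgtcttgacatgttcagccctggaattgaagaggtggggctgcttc

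Libraries held 48940875 to 91976637 unique molecular identifiers (UMIs, 1 per captured RNA molecule) over 1997 to 4093 spots, and the median spot held 12736 to 28433 UMIs. Levels are UMIs summed over all spots and scaled to the effective library size (scaled CPM). Ratios between libraries carry 95% exact intervals, which cover counting error only, and with 1 library per group no difference could be tested against the spread between animals. Col4a5, the gene named in the strain, was at 5.52 scaled CPM in the Early treated 5m AS kidney, 5.57 in the Late treated 5m AS kidney, 3.39 in 5m AS, 6.54 in 2m AS, 13.2 in the mixed library and 11.9 in WT. Each AS library was below both others. The Y-linked gene Ddx3y had 1302 to 1826 UMIs in 5 libraries and 0 in the mixed one, which allows up to 0.043 scaled CPM; any comparison with that library is therefore one between sexes too. Mitochondrially encoded genes took 11.9% of UMIs in WT and 6% to 8.32% in the other libraries, which bears on each comparison with WT and whose part there was not tested. Every gene of the 14 kidney and immune marker lists had at least 4 UMIs in each library. Of 4922 barcodes, 486 occurred in all 6 libraries, and Visium slides carry a fixed set of barcodes. WT and 5m AS were counted with Space Ranger 1.2.1 and the other 4 libraries with version 1.3.1, and where a comparison crosses these versions, version and group cannot be told apart.

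**Figure D1:**
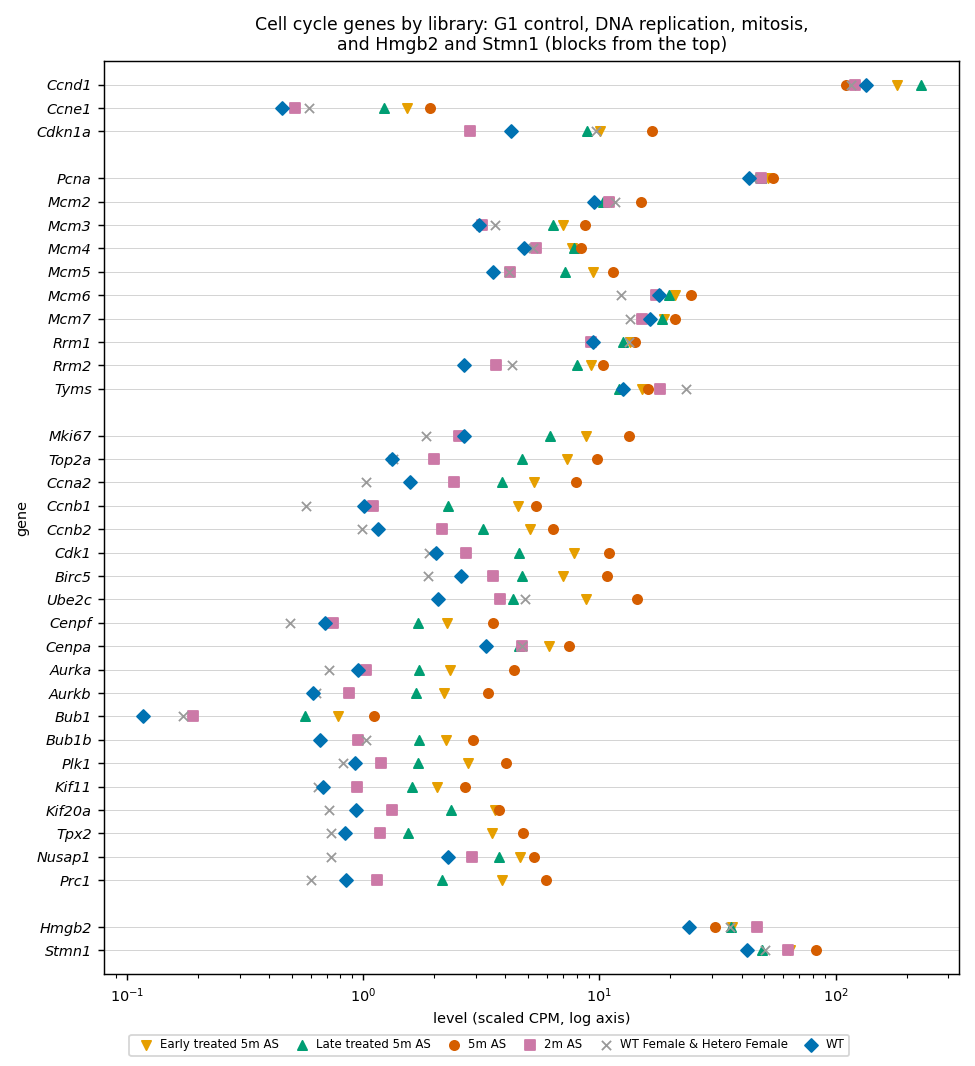
Level of each of the 35 genes (rows, in 4 blocks by role) in each of the 6 libraries (symbols), in scaled CPM on a log axis. In the mitosis block the 5m AS circle is the rightmost symbol in all 20 rows, while in the replication block the symbols lie closer together and Tyms is highest in the mixed library.

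The genes of mitosis were all highest in untreated 5m AS. Of 20, 19 followed the order 5m AS, Early treated 5m AS, Late treated 5m AS and 2m AS from high to low. The exception was Cenpa, the histone of the centromere, which had 4.58 scaled CPM in the Late treated 5m AS kidney and 4.7 in 2m AS. The share of all genes highest in 5m AS or in this order was not counted. All 20 genes were read in the same 6 libraries, so their orders are not independent of each other. Neighbours in that order did not always differ beyond counting error. The intervals of the levels were apart for 13 of 20 genes between 5m AS and Early treated 5m AS, for 13 between Early and Late treated 5m AS, and for 15 between Late treated 5m AS and 2m AS. At the low end 14 genes were lowest in the mixed library and 6 in WT.

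Mki67 (chromosome 7, 135689784 to 135716361, minus strand, mm10), which coats mitotic chromosomes and is the usual marker of cycling cells, had 8.75 scaled CPM in the Early treated 5m AS kidney, 6.17 in the Late treated 5m AS kidney, 13.4 in 5m AS, 2.54 in 2m AS, 1.85 in the mixed library and 2.68 in WT. Top2a, the topoisomerase that untangles sister chromatids, stood at 7.27 in the Early treated 5m AS kidney, 4.68 in the Late treated 5m AS kidney, 9.75 in 5m AS, 2 in 2m AS, 1.33 in the mixed library and 1.32 scaled CPM in WT. Both genes set the 5-month AS libraries above the other 3, with Mki67 no higher in 2m AS than in WT. Cdk1, the kinase that drives entry into mitosis, was measured at 7.84 in the Early treated 5m AS kidney, 4.56 in the Late treated 5m AS kidney, 11 in 5m AS, 2.73 in 2m AS, 1.89 in the mixed library and 2.03 scaled CPM in WT. Its partner Ccnb1, cyclin B1, had scaled CPM of 4.53 in the Early treated 5m AS kidney, 2.28 in the Late treated 5m AS kidney, 5.4 in 5m AS, 1.1 in 2m AS, 0.574 in the mixed library and 1.01 in WT. For Ccnb1 the level in the Early treated 5m AS kidney lay near that of 5m AS, and the level in the Late treated 5m AS kidney lay nearer to that of 2m AS.

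Ube2c, the ubiquitin-conjugating enzyme that works with the anaphase-promoting complex, gave 8.81 scaled CPM in the Early treated 5m AS kidney, 4.32 in the Late treated 5m AS kidney, 14.4 in 5m AS, 3.8 in 2m AS, 4.86 in the mixed library and 2.08 in WT. Most mitosis genes had their lowest level in the mixed library, but Ube2c lay above 2m AS and WT there. Nusap1, which bundles spindle microtubules, set the mixed library apart on the low side, at 4.63 in the Early treated 5m AS kidney, 3.76 in the Late treated 5m AS kidney, 5.3 in 5m AS, 2.89 in 2m AS, 0.731 in the mixed library and 2.28 scaled CPM in WT. The kinesin Kif20a of cytokinesis was nearly level between Early treated 5m AS and 5m AS, with 3.61 scaled CPM in the Early treated 5m AS kidney, 2.35 in the Late treated 5m AS kidney, 3.76 in 5m AS, 1.32 in 2m AS, 0.717 in the mixed library and 0.936 in WT. Bub1, a kinase of the spindle checkpoint, had the fewest UMIs of the members, with 45 in the Early treated 5m AS kidney, 38 in the Late treated 5m AS kidney, 66 in 5m AS, 14 in 2m AS, 12 in the mixed library and 8 in WT. Its mean level of 0.49 scaled CPM was below the minimum of 0.5 over the 6 libraries, so 34 of the 35 members enter the counts of genes past a fold. Of those 34, Ccne1 was under 0.5 in WT and Cenpf in the mixed library. The remaining mitosis genes (Ccna2, Ccnb2, Birc5, Cenpf, Aurka, Aurkb, Bub1b, Plk1, Kif11, Tpx2 and Prc1) lay between 2.7 and 10.8 scaled CPM in 5m AS and between 0.614 and 2.6 in WT.

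Genes of DNA replication showed a narrower spread, and 9 of 10 were highest in 5m AS. The clamp Pcna was nearly flat, with 52 scaled CPM in the Early treated 5m AS kidney, 48.5 in the Late treated 5m AS kidney, 54.4 in 5m AS, 48.3 in 2m AS, 44.1 in the mixed library and 43 in WT. Mcm5, a subunit of the replicative helicase, varied more, with 9.42 in the Early treated 5m AS kidney, 7.18 in the Late treated 5m AS kidney, 11.4 in 5m AS, 4.17 in 2m AS, 4.13 in the mixed library and 3.54 scaled CPM in WT. Mcm3 had a like pattern, whereas Mcm6 and Mcm7, parts of the same ring, varied less. Mcm6 had scaled CPM of 20.9 in the Early treated 5m AS kidney, 19.8 in the Late treated 5m AS kidney, 24.5 in 5m AS, 17.4 in 2m AS, 12.3 in the mixed library and 17.8 in WT. Rrm2, the subunit of ribonucleotide reductase made in S phase, stood at 9.18 in the Early treated 5m AS kidney, 8.05 in the Late treated 5m AS kidney, 10.4 in 5m AS, 3.65 in 2m AS, 4.27 in the mixed library and 2.68 scaled CPM in WT. Its partner Rrm1 was less far apart, with 13.5 in the Early treated 5m AS kidney, 12.6 in the Late treated 5m AS kidney, 14.2 in 5m AS, 9.17 in 2m AS, 13.4 in the mixed library and 9.4 scaled CPM in WT. Tyms, thymidylate synthase, did not follow the others: it had 15.2 scaled CPM in the Early treated 5m AS kidney, 12.1 in the Late treated 5m AS kidney, 16.1 in 5m AS, 18 in 2m AS, 23.3 in the mixed library and 12.6 in WT.

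Of the G1 regulators, Cdkn1a and Ccne1 were highest in 5m AS and Ccnd1 lowest there. Cdkn1a (chromosome 17, 29090976 to 29100727, plus strand, mm10), the inhibitor p21, had 10.1 scaled CPM in the Early treated 5m AS kidney, 8.84 in the Late treated 5m AS kidney, 16.7 in 5m AS, 2.84 in 2m AS, 9.68 in the mixed library and 4.23 in WT. It was highest in the library that was also highest for mitosis genes, and the mixed library lay above Late treated 5m AS. Ccne1, cyclin E1, gave 1.53 in the Early treated 5m AS kidney, 1.22 in the Late treated 5m AS kidney, 1.92 in 5m AS, 0.516 in 2m AS, 0.588 in the mixed library and 0.453 scaled CPM in WT. Ccnd1 (chromosome 7, 144929931 to 144939925, minus strand), cyclin D1, ran the other way, with 182 scaled CPM in the Early treated 5m AS kidney, 229 in the Late treated 5m AS kidney, 111 in 5m AS, 121 in 2m AS, 116 in the mixed library and 134 in WT. It was highest in the 2 treated libraries and lowest in untreated 5m AS.

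Hmgb2 and Stmn1 did not share a pattern. Hmgb2 was highest in 2m AS, at 36.4 in the Early treated 5m AS kidney, 36.2 in the Late treated 5m AS kidney, 31 in 5m AS, 46.3 in 2m AS, 35.7 in the mixed library and 24 scaled CPM in WT. Stmn1 was highest in 5m AS, at 64 in the Early treated 5m AS kidney, 48.6 in the Late treated 5m AS kidney, 82.7 in 5m AS, 62.9 in 2m AS, 50.1 in the mixed library and 42.2 scaled CPM in WT. In summed tissue RNA, fewer cells of a type and less RNA per cell cannot be told apart, and this holds for every level above and below.

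In 2m AS against WT, the comparison at the younger AS age, few members passed 1.5-fold. The same WT library, whose age is not given, is the reference at both AS ages. Age and genotype therefore cannot be told apart in comparisons with WT. Only 5 members were at least 1.5-fold higher in 2m AS (Hmgb2, Ccnb2, Ube2c, Ccna2 and Top2a) and none was 1.5-fold lower, among 34 that passed the minimum. Over all 14442 genes past it, 11.1% were at least 1.5-fold higher and 9.31% lower, and with plain CPM the split over all genes was 8.41% higher and 13.2% lower, so 5 of 34 is near the share of all genes. The ratios were 1.93 (1.82 to 2.05) for Hmgb2, 1.86 (1.41 to 2.46) for Ccnb2, cyclin B2, and 1.83 (1.49 to 2.26) for Ube2c. At any fold, 19 of the 20 mitosis genes were above WT, with the intervals of the levels apart for 6. These 19 include Ccnb2, Ube2c, Ccna2 and Top2a, and the share of all genes above WT was not counted. The summed mitosis UMIs were 1.37-fold (1.29 to 1.46) higher and the summed replication UMIs 1.1-fold (1.07 to 1.13). Mki67, the mitosis gene not above WT, had a ratio of 0.949 (0.77 to 1.17), and Cdkn1a had 0.671 (0.559 to 0.805). Of the markers of other cells, 6 of 8 for fibroblasts, 2 of 10 for macrophages and 5 of 9 for tubular injury were at least 1.5-fold higher in 2m AS. In the injury list Sox9 was lower, at 0.613 (0.382 to 0.97), and Krt18 and Krt8 had ratios of 0.727 (0.662 to 0.798) and 0.742 (0.72 to 0.766). Macrophage markers summed to 277 scaled CPM in 2m AS and 197 in WT, and their part in the result was not tested. Set against the mixed library in place of WT, Ube2c in 2m AS had a log2 ratio of -0.35, the opposite direction.

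In 5m AS against WT, the comparison at the later AS age with the same WT library, the whole mitosis block was higher and the replication genes followed in part. Of 34 members 28 were at least 1.5-fold higher and none lower, beside 16.7% of all genes higher and 13.5% lower (28.9% and 4.93% with plain CPM, which lifts the median of all genes by 0.40 on the log2 scale). All 19 mitosis genes past the minimum were among the 28, with log2 ratios of 1.16 to 2.89 and a median of 2.34. Of the 10 replication genes 6 were past 1.5-fold (Mcm2, Mcm3, Mcm4, Mcm5, Rrm1 and Rrm2), with a median log2 ratio of 0.63, beside -0.09 for all genes. Top2a had a ratio of 7.41 (5.92 to 9.35), Prc1, which bundles the central spindle, 7.02 (5.3 to 9.43), and Ube2c 6.94 (5.81 to 8.35). Cenpa and Nusap1 were at the low end of the block, at 2.23 (1.9 to 2.63) and 2.32 (1.91 to 2.83). Among replication genes the spread ran from 1.26 (1.2 to 1.33) for Pcna to 3.87 (3.28 to 4.59) for Rrm2. Cdkn1a was 3.95-fold (3.46 to 4.51) and Ccne1 4.24-fold (2.83 to 6.53) higher, while Ccnd1 had a ratio of 0.827 (0.801 to 0.854). The markers of other cells moved with these genes: all 10 macrophage markers, all 8 fibroblast markers, 8 of 9 tubular injury markers and 5 of 6 T cell markers were at least 1.5-fold higher, and all 7 early proximal tubule markers lower. In summed levels, macrophage markers had 1527 scaled CPM in 5m AS and 197 in WT, and T cell markers 23.1 in 5m AS and 8.01 in WT. Their part in the result was not tested.

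Between the ages, 5m AS against 2m AS, 26 of 34 members were at least 1.5-fold higher and none lower, beside 21% of all genes higher and 19.9% lower (44.2% and 6.63% with plain CPM, which shifts the median of all genes by 0.50 on the log2 scale). The 19 mitosis genes were again all past 1.5-fold, from Cenpa at 1.58 (1.37 to 1.82) to Mki67 at 5.27 (4.49 to 6.22). Cdkn1a was 5.88-fold (5.06 to 6.86) higher, a larger ratio than that of any mitosis gene past the minimum. Hmgb2 went the other way, with a ratio of 0.67 (0.632 to 0.709). Here too all 10 macrophage and all 9 tubular injury markers were past 1.5-fold higher. Macrophage markers summed to 1527 scaled CPM in 5m AS and 277 in 2m AS. Their part in the result was not tested. These comparisons share the 5m AS library, so their ratios are not independent of each other.

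The treated libraries were compared with 5m AS to ask how the kidneys stood after hEV. In Late treated 5m AS, 22 of 34 members were at least 1.5-fold lower and 1, Ccnd1, higher, beside 13.7% of all genes lower and 9.8% higher. The 22 held 18 of 19 mitosis genes, with a median log2 ratio of -1.06, but only 1 of 10 replication genes, Mcm5, with a median of -0.34 for that group. Ube2c had a ratio of 0.3 (0.261 to 0.343), Tpx2, which activates Aurora A on the spindle, 0.326 (0.258 to 0.409), and Prc1 0.363 (0.297 to 0.442). Nusap1, at 0.709 (0.598 to 0.84), was the mitosis gene that did not pass the fold. Cdkn1a was 0.53-fold (0.478 to 0.587) of its level in 5m AS, Stmn1 0.587-fold (0.561 to 0.614) and Ccne1 0.636-fold (0.473 to 0.852). Ccnd1 was 2.07-fold (2.01 to 2.13) higher. All 9 tubular injury, all 10 macrophage, 6 of 8 fibroblast and 4 of 6 T cell markers were also at least 1.5-fold lower in the Late treated 5m AS kidney. Summed macrophage markers had 655 scaled CPM in the Late treated 5m AS kidney and 1527 in 5m AS, and their part in the result was not tested.

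In Early treated 5m AS the same direction was seen at smaller size. Against 5m AS, 9 of 34 members were at least 1.5-fold lower and Ccnd1 was higher, at 1.65 (1.6 to 1.7), beside 7.12% of all genes lower and 6.01% higher. The 9 were Cdkn1a and the mitosis genes Aurka, Ube2c, Aurkb, Cenpf, Prc1, Birc5, Mki67 and Ccna2, with ratios of 0.54 (0.435 to 0.668) for Aurka to 0.658 (0.567 to 0.761) for Ccna2. They lie near the fold, and with plain CPM 3 members passed it, with each spot weighted equally 2. Over all genes plain CPM gave 5.82% lower and 7.15% higher, and equal spot weights 5.51% and 6.68%. None of the 10 replication genes passed, with a median log2 ratio of -0.17. Cdkn1a had a ratio of 0.604 (0.545 to 0.67). All 10 macrophage and 6 of 8 fibroblast markers were at least 1.5-fold lower, as were 2 of 9 tubular injury markers and 1 of 6 T cell markers. Macrophage markers summed to 918 scaled CPM in the Early treated 5m AS kidney and 1527 in 5m AS, and their part in the result was not tested.

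Set directly against each other, Early treated 5m AS had 9 of 34 members at least 1.5-fold higher than Late treated 5m AS and none lower, beside 5.84% of all genes higher and 3.59% lower. All 9 were mitosis genes (Tpx2, Ube2c, Ccnb1, Prc1, Cdk1, Plk1, Ccnb2, Top2a and Kif20a). Tpx2 had a ratio of 2.26 (1.78 to 2.89), Ube2c 2.04 (1.76 to 2.36) and Ccnb1 1.99 (1.62 to 2.44). Replication genes lay between Mcm4 at 0.984 (0.865 to 1.12) and Mcm5 at 1.31 (1.16 to 1.49). Cdkn1a was 1.14-fold (1.02 to 1.28) and Ccnd1 0.796-fold (0.776 to 0.816). All 9 tubular injury markers were at least 1.5-fold higher in the Early treated 5m AS kidney, with sums of 4735 scaled CPM there and 2444 in the Late treated 5m AS kidney. So were 2 of 10 macrophage markers, with sums of 918 in Early and 655 in Late treated 5m AS, and 3 of 6 B and plasma cell markers, with sums of 318 in Early and 65.8 in Late treated 5m AS. Their part in the result was not tested.

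Most members were also higher in the treated libraries than in WT. In Early treated 5m AS 27 of 34 members passed 1.5-fold above WT, beside 14.5% of all genes higher and 11.3% lower (32.8% and 2.89% with plain CPM, a shift of 0.46). In Late treated 5m AS 26 were, beside 13.3% and 12.1% (32.9% and 3.1% with plain CPM, a shift of 0.45). No member was 1.5-fold lower in either. The median log2 ratio of mitosis genes was 1.77 in the Early treated 5m AS kidney and 1.2 in the Late treated 5m AS kidney, and that of replication genes 0.40 in the Early and 0.30 in the Late treated library. Macrophage markers summed to 918 scaled CPM in the Early treated 5m AS kidney, 655 in the Late treated 5m AS kidney and 197 in WT, and their part was not tested. The mitochondrial share of UMIs was 6% in the Early treated 5m AS kidney, 8.32% in the Late treated 5m AS kidney and 11.9% in WT. Its part was likewise not tested. Cenpa was the mitosis gene of Late treated 5m AS below the fold, at 1.38 (1.16 to 1.64). Against the mixed library, Cdkn1a in the Late treated 5m AS kidney had a log2 ratio of -0.13 and Ube2c -0.17, where against WT each had 1.06.

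Mitosis genes were set against replication genes within each library, a quantity that does not depend on how libraries are scaled. For each replication UMI there were 0.553 (0.534 to 0.572) mitosis UMIs in the Early treated 5m AS kidney, 0.389 (0.375 to 0.404) in the Late treated 5m AS kidney, 0.697 (0.677 to 0.718) in 5m AS, 0.277 (0.265 to 0.289) in 2m AS, 0.195 (0.185 to 0.205) in the mixed library and 0.222 (0.211 to 0.234) in WT. No 2 of these counting intervals overlap. In 5m AS against WT the summed mitosis UMIs were 4.7-fold (4.47 to 4.95) higher and the summed replication UMIs 1.5-fold (1.46 to 1.54), a ratio between the 2 groups of genes of 3.14 (2.96 to 3.33, approximate interval). Late treated 5m AS against 5m AS gave 0.459 (0.442 to 0.477) for mitosis and 0.822 (0.8 to 0.845) for replication, so the ratio between the groups was 0.558 (0.533 to 0.585). In Early treated 5m AS against 5m AS it was 0.793 (0.758 to 0.829), and in 2m AS against WT 1.24 (1.17 to 1.33). Pcna alone gave 29.6% to 35.7% of the replication UMIs. Without Pcna the order of libraries was the same, with 0.808 in the Early treated 5m AS kidney, 0.573 in the Late treated 5m AS kidney, 0.99 in 5m AS, 0.43 in 2m AS, 0.289 in the mixed library and 0.342 in WT.

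**Figure D2:**
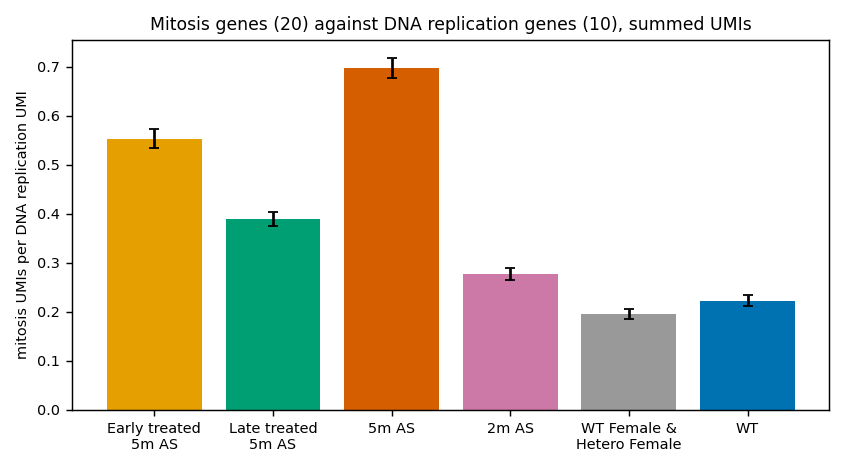
UMIs of the 20 mitosis genes per UMI of the 10 replication genes in each library, with exact 95% counting intervals as error bars. The bars run from 0.195 in the mixed library to 0.697 in 5m AS, with Early treated 5m AS at 0.553 and Late treated 5m AS at 0.389.

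The spread of this RNA over each section was read from the spots. Because depth differs, each spot was thinned to 5000 UMIs, and 65 to 626 shallower spots per library were left out. A mitosis UMI was then found in 33.8% (32.1 to 35.6) of spots in the Early treated 5m AS kidney, 24.2% (22.6 to 25.9) in the Late treated 5m AS kidney, 47.5% (45.2 to 49.7) in 5m AS, 13.2% (12 to 14.5) in 2m AS, 10.7% (9.63 to 11.9) in the mixed library and 10.8% (9.9 to 11.8) in WT. These are exact binomial intervals, which treat spots as independent draws. Without thinning the shares were 54.2% in the Early treated 5m AS kidney, 54.6% in the Late treated 5m AS kidney, 87.7% in 5m AS, 42% in 2m AS, 31.9% in the mixed library and 30.7% in WT. The thinned shares keep the order of the summed levels, and the 2m AS interval lies just above that of WT. Replication UMIs were more widespread in every library, in 60.7% of thinned spots in the Early treated 5m AS kidney, 57.7% in the Late treated 5m AS kidney, 65.3% in 5m AS, 43.9% in 2m AS, 47.6% in the mixed library and 40.4% in WT. Without thinning these were 80.6% in the Early treated 5m AS kidney, 86.9% in the Late treated 5m AS kidney, 95.7% in 5m AS, 89.1% in 2m AS, 83.6% in the mixed library and 80.9% in WT. Cdkn1a was found in 6.43% of thinned spots in the Early treated 5m AS kidney, 5.09% in the Late treated 5m AS kidney, 8.75% in 5m AS, 1.24% in 2m AS, 5.09% in the mixed library and 2.04% in WT. Unthinned, it was found in 13.6% in the Early treated 5m AS kidney, 16.7% in the Late treated 5m AS kidney, 34.8% in 5m AS, 6.1% in 2m AS, 16.9% in the mixed library and 6.6% in WT.

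Mitosis UMIs were clustered in spots, and replication UMIs much less so. If UMIs fell on thinned spots at random, the variance over spots would equal the mean. For mitosis genes the variance over the mean was 1.97 in the Early treated 5m AS kidney, 1.77 in the Late treated 5m AS kidney, 1.47 in 5m AS, 1.53 in 2m AS, 1.54 in the mixed library and 1.22 in WT. For replication genes it was 1.26 in the Early treated 5m AS kidney, 1.21 in the Late treated 5m AS kidney, 1.12 in 5m AS, 1.01 in 2m AS, 1.04 in the mixed library and 1.02 in WT. The spot richest in mitosis RNA lay in 5m AS, with 65 mitosis UMIs from 18 of the 20 genes and 32 replication UMIs among 40096 UMIs in all. In Early treated 5m AS the richest spot had 63 mitosis UMIs, in the Late treated 5m AS kidney 37, in 2m AS 34, in the mixed library 23 and in WT 16. Cdkn1a had at most 1 UMI in each of these 6 spots. Its mean over all unthinned spots was itself only 0.0651 UMIs in 2m AS to 0.495 in 5m AS, so these counts cannot show less Cdkn1a than usual.

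Spots of each library were ranked by the share of their UMIs from tubular injury markers (Havcr1, Lcn2, Krt8, Krt18, Krt20, Vcam1, Sox9, Spp1 and Cd44) and cut into 4 equal parts, from the least to the most injury RNA. Spp1 gave 6202 of the list's 6894 scaled CPM in 5m AS, 2225 of 2444 in the Late treated 5m AS kidney and 665 of 826 in WT. The order of spots there rests largely on this gene. From the lowest to the highest part, the mitosis genes had 68.8, 86.2, 96.9 and 123 scaled CPM in the Early treated 5m AS kidney and 38.4, 53.7, 65.5 and 89.5 in the Late treated 5m AS kidney. In 5m AS they had 99.4, 112, 144 and 158, in 2m AS 26.5, 31, 38.8 and 61, in the mixed library 25.5, 28, 24.2 and 28, and in WT 22.8, 23.2, 25.1 and 38.7. Mitosis RNA was thus highest in the top part by this list within each AS library and in WT. In WT it was within counting error of no difference when Spp1, Krt8 and Krt18 were left out, as given below. The lowest part of 5m AS still had more mitosis RNA than the top part of 2m AS or WT. All 20 mitosis genes were higher in the top than in the bottom part in the Early treated 5m AS kidney, Late treated 5m AS and 2m AS, 19 in 5m AS and WT, and 11 in the mixed library. There Ube2c had 3.37 scaled CPM in the top and 7.37 in the bottom part. The exception in 5m AS was Cenpf, a kinetochore protein, with 3.08 scaled CPM in the top and 3.09 in the bottom part. In WT it was Kif20a, with 0.981 in the top and 1.26 in the bottom part. Replication genes were mostly higher in the top part too. This held for all 10 in the Early treated 5m AS kidney, Late treated 5m AS and 5m AS. It held for 9 of 10 in 2m AS, the mixed library and WT. The share of all genes higher in the top part was not counted.

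Cdkn1a differed between these parts by more than the mitosis genes did in 5m AS and in the Early treated library. It had 17.8 scaled CPM in the top and 5.29 in the bottom part of Early treated 5m AS, a ratio of 3.37 (2.62 to 4.36), where mitosis genes had 1.78 (1.65 to 1.93) and replication genes 1.57 (1.48 to 1.66). In Late treated 5m AS the ratio was 2.47 (1.94 to 3.17) for Cdkn1a, 2.33 (2.13 to 2.55) for mitosis and 1.55 (1.46 to 1.63) for replication genes. The ratios in 5m AS were 2.11 (1.75 to 2.54) for Cdkn1a, 1.59 (1.49 to 1.7) for mitosis and 1.48 (1.41 to 1.57) for replication genes. Ccnd1 differed little between the parts of 5m AS, with 97.2, 108, 123 and 116 scaled CPM from the lowest to the highest part, and more in 2m AS, with 63.7, 106, 167 and 177. The median spot of Early treated 5m AS held 10185 UMIs in the part with the most injury RNA and 16927 in that with the least. The role of depth in these ratios was not tested. Without Spp1, Krt8 and Krt18, a change made after the data were seen, the mitosis ratio was 2.03 in the Early treated 5m AS kidney, 2.57 in the Late treated 5m AS kidney and 1.73 in 5m AS. It was 1.45 in 2m AS, 1.49 in the mixed library and 1.08 (0.948 to 1.22) in WT. The Cdkn1a ratio in WT turned to 0.845 (0.605 to 1.18).

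**Figure D3:**
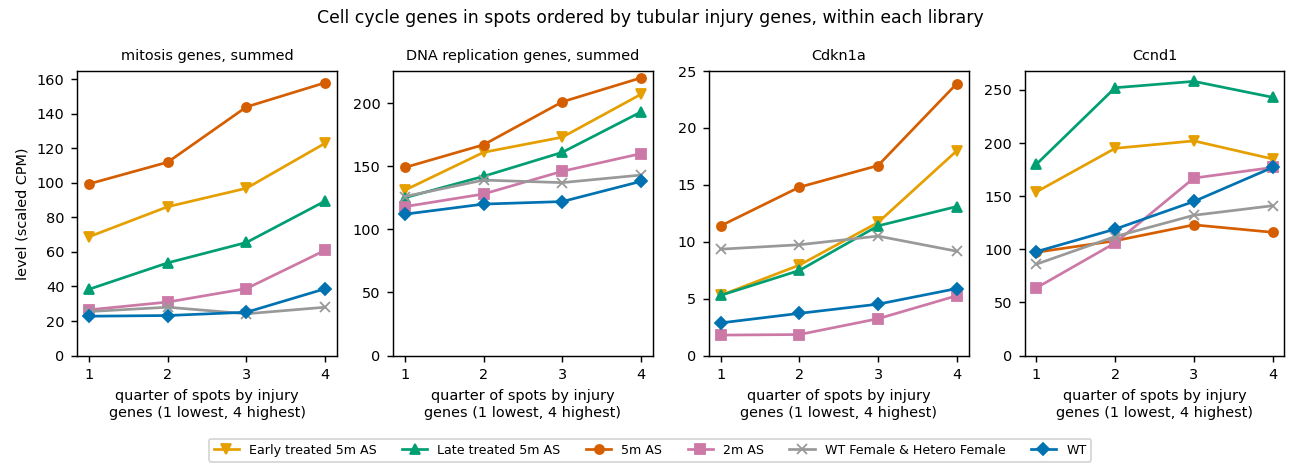
Scaled CPM of mitosis genes, replication genes, Cdkn1a and Ccnd1 in 4 equal parts of the spots of each library, from the least to the most tubular injury RNA. From the part with the least to that with the most of this RNA, mitosis genes run from 38.4 to 89.5 in the Late treated 5m AS kidney. They run from 99.4 to 158 in 5m AS, and lie between 24.2 and 28 in the mixed library.

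Other cell markers ordered the spots in a like way. Between the highest and the lowest of 4 equal parts by macrophage markers, the mitosis ratio was 2.36 (2.18 to 2.57) in the Early treated 5m AS kidney, 2.69 (2.47 to 2.93) in the Late treated 5m AS kidney, 1.67 (1.56 to 1.78) in 5m AS, 1.7 (1.53 to 1.9) in 2m AS, 2.43 (2.11 to 2.8) in the mixed library and 1.28 (1.13 to 1.46) in WT. By fibroblast markers it was 2.25 (2.07 to 2.44) in the Early treated 5m AS kidney, 2.8 (2.56 to 3.06) in the Late treated 5m AS kidney and 1.63 (1.53 to 1.73) in 5m AS. By early proximal tubule markers the relation was inverse in 5 of the 6 libraries, with 0.435 (0.4 to 0.472) in the Early treated 5m AS kidney, 0.5 (0.455 to 0.548) in the Late treated 5m AS kidney, 0.8 (0.749 to 0.854) in 5m AS, 0.495 (0.428 to 0.571) in the mixed library and 0.778 (0.682 to 0.887) in WT. The exception was 2m AS, at 1.2 (1.08 to 1.34). A spot covers several cells, so these values do not say which cells held the RNA. For T cell markers most spots of each library had no UMI of the list (1130 to 3618 spots), so parts ranked by them are hardly ordered.

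**Figure D4:**
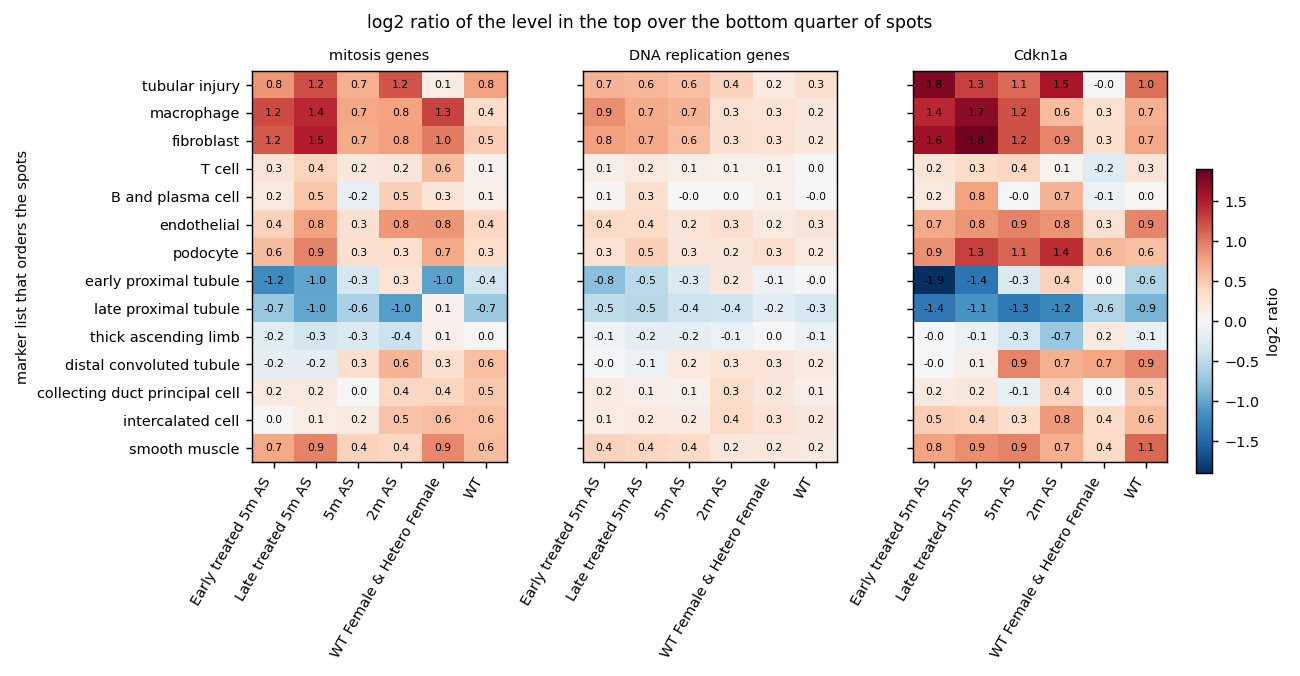
Log2 ratio of mitosis genes, replication genes and Cdkn1a between the top and the bottom of 4 equal parts of spots, ranked by each of 14 marker lists (rows) in each library (columns). Red marks more RNA in the spots rich in that marker list, in most libraries for macrophage, fibroblast and injury markers, and blue less, in most libraries for proximal tubule markers.

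Spots rich in mitosis RNA were also read for other RNA. Between spots with at least 2 mitosis UMIs and spots with none, both thinned, replication RNA was 1.59-fold (1.44 to 1.76) higher in the Early treated 5m AS kidney, 1.66-fold (1.45 to 1.9) in the Late treated 5m AS kidney, 1.4-fold (1.25 to 1.56) in 5m AS, 1.53-fold (1.15 to 1.99) in 2m AS and 1.69-fold (1.26 to 2.23) in the mixed library. In WT the ratio was 0.991 (0.64 to 1.47). Spots with at least 2 numbered 343 in the Early treated 5m AS kidney, 178 in the Late treated 5m AS kidney, 331 in 5m AS, 66 in 2m AS, 48 in the mixed library and 48 in WT. Cdkn1a had a ratio of 1.36 (0.883 to 2.05) in the Early treated 5m AS kidney and 1.22 (0.789 to 1.85) in 5m AS, both within counting error of no difference, and 2.15 (1.24 to 3.53) in the Late treated 5m AS kidney. With few such spots the intervals were wide in the other libraries, at 2.6 (0.301 to 10.2) in 2m AS, 0.777 (0.0932 to 2.86) in the mixed library and 4.04 (1.07 to 10.8) in WT.

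The wider pathway was read from lists of other genes. Of 28 further mitosis genes 26 passed the minimum, and 23 of them were at least 1.5-fold higher in 5m AS than in WT and none lower, with a median log2 ratio of 2.05. Over all genes 16.7% were higher and 13.5% lower in that comparison, the background for each list here. In Late treated 5m AS against 5m AS, 21 of 26 were lower and none higher, beside 13.7% and 9.8% of all genes. In the Early treated 5m AS kidney 7 were lower, beside 7.12%. Kif2c, a kinesin that takes microtubules apart, had 1.58 scaled CPM in the Early treated 5m AS kidney, 0.671 in the Late treated 5m AS kidney, 1.97 in 5m AS, 0.38 in 2m AS, 0.301 in the mixed library and 0.307 in WT. Nuf2, a kinetochore protein, had 2.11 scaled CPM in 5m AS and 0.336 in WT, Hmmr, a spindle protein, 2.93 in 5m AS and 0.468 in WT, and Ncapg, a condensin subunit, 1.92 in 5m AS and 0.351 in WT. These 4 were named for the size of this difference and lie under the minimum of 0.5 in WT, so they passed it only through libraries where they were higher. The same holds for Kif4, Ndc80 and Ttk, also among the 23, with 0.336, 0.41 and 0.278 scaled CPM in WT. The list's summed level did not have the order of the 20 members, with 223 scaled CPM in the Early treated 5m AS kidney, 187 in the Late treated 5m AS kidney, 234 in 5m AS, 298 in 2m AS, 265 in the mixed library and 173 in WT. Its genes with the most UMIs, Pttg1 (securin) and Cks2 (a partner of Cdk1), picked after their values were seen, were lower in 5m AS than in 2m AS. Pttg1 had 48.7 scaled CPM in 5m AS, 107 in 2m AS and 61.2 in WT, and Cks2 47.4 in 5m AS, 119 in 2m AS and 55.5 in WT. In 5m AS against 2m AS, 20 of the 26 were at least 1.5-fold higher and these 2 lower, beside 21% of all genes higher and 19.9% lower. Of 26 further replication genes 13 were higher and 2 lower in 5m AS than in WT, with a median of 0.59, beside the 16.7% and 13.5% of all genes. Cdc6, which loads the Mcm ring, stood at 1.41 in the Early treated 5m AS kidney, 0.984 in the Late treated 5m AS kidney, 1.5 in 5m AS, 0.38 in 2m AS, 0.401 in the mixed library and 0.249 scaled CPM in WT. Named for its difference between 5m AS and WT, Cdc6 passed the minimum of 0.5 only through the 5-month AS libraries. Uhrf1, which guides DNA methylation at the fork, had a ratio of 4.46 (3.56 to 5.63) in 5m AS against WT. Chaf1b, a histone chaperone, had 3.26 (2.51 to 4.26), and Gins2, part of the helicase, 3.12 (2.58 to 3.79). In Late treated 5m AS 2 of these 26 were lower than in 5m AS and 1 higher, no more than the 13.7% and 9.8% of all genes.

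Of 18 other cyclins, kinases and genes of E2F control, 5 were higher in 5m AS than in WT and none lower, beside 16.7% and 13.5% of all genes. Foxm1, an activator of mitosis genes, had 2.72 scaled CPM in the Early treated 5m AS kidney, 2.16 in the Late treated 5m AS kidney, 4.1 in 5m AS, 0.937 in 2m AS, 0.817 in the mixed library and 0.907 in WT. E2f1, an activator of replication genes, had 6.84 in the Early treated 5m AS kidney, 5.68 in the Late treated 5m AS kidney, 6.39 in 5m AS, 2.55 in 2m AS, 1.96 in the mixed library and 2.71 scaled CPM in WT. Foxm1 was lower in the 2 treated libraries, at 0.665 (0.54 to 0.816) in the Early treated 5m AS kidney and 0.527 (0.426 to 0.65) in the Late treated 5m AS kidney against 5m AS. E2f1 was at 1.07 (0.926 to 1.23) in the Early treated 5m AS kidney and 0.888 (0.768 to 1.03) in the Late treated 5m AS kidney. E2f8, a late repressor of the E2F family, had 1.21 in the Early treated 5m AS kidney, 0.715 in the Late treated 5m AS kidney, 1.1 in 5m AS, 0.285 in 2m AS, 0.244 in the mixed library and 0.176 scaled CPM in WT. Named for its difference between 5m AS and WT, E2f8 passed the minimum of 0.5 only through the 5-month AS libraries. In 5m AS against WT the ratio was 2.98 (2.01 to 4.51) for Ccne2, cyclin E2. Mybl2 (B-Myb), Lin9 and Lin54, parts of the complexes that act on mitosis genes, were picked after their values were seen and stayed within 1.5-fold. Their ratios in 5m AS against WT were 0.965 (0.704 to 1.32), 0.952 (0.753 to 1.2) and 0.829 (0.721 to 0.953).

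Other inhibitors and p53 targets were read beside Cdkn1a, itself a p53 target. Of 6 other CDK inhibitors past the minimum, 2 were at least 1.5-fold higher in 5m AS than in WT and none lower, beside 16.7% and 13.5% of all genes. Cdkn2b, the inhibitor p15, had 1.98 scaled CPM in the Early treated 5m AS kidney, 1.24 in the Late treated 5m AS kidney, 3.29 in 5m AS, 0.801 in 2m AS, 0.789 in the mixed library and 0.307 in WT. It was named for its difference between 5m AS and WT, and it lies under the minimum in WT. Cdkn3, a phosphatase made by dividing cells, had a ratio of 4.19 (3.19 to 5.56) in 5m AS against WT, and Cdkn2c, an inhibitor of Cdk4 and Cdk6, 1.14 (1.03 to 1.27). Cdkn1b, the inhibitor p27, was highest in the 2 treated libraries, with 29.6 in the Early treated 5m AS kidney, 39.8 in the Late treated 5m AS kidney, 19.7 in 5m AS, 11.4 in 2m AS, 10.5 in the mixed library and 21.6 scaled CPM in WT. Cdkn2a, named after its values were seen, had 9 UMIs in the Early treated 5m AS kidney, 12 in the Late treated 5m AS kidney, 11 in 5m AS and 0 in each of the other 3 libraries. Set against a floor of 3 counts in the WT library, its level was 3.56-fold in the Early treated 5m AS kidney, 4.08-fold in the Late treated 5m AS kidney and 4.23-fold in 5m AS. These folds leave out the counting error of 9 to 12 UMIs and are not lower bounds. Among 16 p53 targets 7 were at least 1.5-fold higher in 5m AS than in WT and none lower, with a median log2 ratio of 0.43, beside 16.7% and 13.5% of all genes. Gdf15, a stress cytokine, had 25.4 in the Early treated 5m AS kidney, 18 in the Late treated 5m AS kidney, 54.5 in 5m AS, 14.3 in 2m AS, 6.18 in the mixed library and 6.9 scaled CPM in WT. In 5m AS against WT the ratio was 7.9 (7.17 to 8.72) for Gdf15, 3.02 (2.76 to 3.29) for Phlda3 and 2.81 (2.39 to 3.31) for Bbc3, the cell death gene Puma. The receptor Eda2r had 1.09 scaled CPM in the Early treated 5m AS kidney, 0.358 in the Late treated 5m AS kidney, 1.55 in 5m AS and 0.204 to 0.416 in the other 3. Eda2r, one of the 7 and named for its difference between 5m AS and WT, passed the minimum only through 5m AS and Early treated 5m AS. Mdm2, the p53 inhibitor that is also its target and was picked after its values were seen, was at 1.11 (1.05 to 1.18). In Late treated 5m AS 6 of the 16 were lower than in 5m AS and 1 higher, beside 13.7% and 9.8% of all genes, and in the Early treated 5m AS kidney 2 were lower, beside 7.12%.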

How the data were processed

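RNA from 6 Visium kidney libraries was counted per gene and spot by the authors. The deposited files hold raw UMI counts, made with Space Ranger 1.2.1 in 2 libraries and 1.3.1 in 4 on mm10, per the file headers and the submitters' processing notes, with no scaling. Depth was 48940875 to 91976637 counts per library, which sets a floor of 3 counts at 0.0407 to 0.0521 scaled CPM.

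Counts were summed over spots per library and scaled by TMM (edgeR 4.0.16, R 4.3.3). Ratios have 95% Clopper-Pearson intervals, for counting error only. Each group is 1 library, so no test was run. A gene was called past 1.5-fold among the 14442 genes with a mean of at least 0.5 scaled CPM. Spots were thinned to 5000 UMIs, and ranked in 4 parts among spots with at least 500. Doublets do not apply to spots. Intervals were checked on simulated data. Alternatives were plain CPM, DESeq2 1.42.0 size factors, no mitochondrial genes, equal spot weights, thinning, a minimum of 0.1 or of 5, and the mixed library as reference. The members and lists were chosen with earlier results of these data known. Pathway genes named are up to 4 per list with the largest absolute log2 ratio in 5m AS against WT among those past the minimum, apart from Cdkn2a, Mdm2, Mybl2, Lin9, Lin54, Pttg1 and Cks2. Promoters and their coordinates are from RefSeq, GRCm38.p6.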

Additional observations from a re-analysis of the deposited data

How the results depend on the processing

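No paired analysis was possible because each group has 1 library, and for the same reason no replicate could be left out. Of the counts of members past 1.5-fold and the mitosis to replication UMI ratios, 124 alternative values stayed close to those reported (counts within 1.5 times, ratios within the approximate 95% counting interval) and 32 moved; the cause was not tested, except that a minimum mean of 5 scaled CPM leaves fewer members to count.

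Shares of all genes under the same setting are in brackets. For 2m AS against WT, 5 members were reported at least 1.5-fold higher. That number was 3 with plain CPM (8.41%), 9 with thinned spots (13.9%), 2 with a minimum of 5 (7.57%) and 9 against the mixed library (8.67%). Members lower, 0 as reported, numbered 1 with plain CPM (13.2%), with thinned spots (9.01%) and against the mixed library (10.5%). A minimum of 5 leaves fewer members and 10608 genes in all. With it, members higher numbered 13 in 5m AS against WT (9.53%), 11 in 5m AS against 2m AS (14.6%) and 2 in Early against Late treated 5m AS (3.33%). They numbered 12 in Early treated 5m AS against WT (7.74%) and 11 in Late treated 5m AS against WT (6.61%). With that minimum, members lower numbered 4 in Early treated 5m AS (3.97%) and 8 in Late treated 5m AS (9.61%) against 5m AS. For Early treated 5m AS against 5m AS, members lower numbered 3 with plain CPM (5.82%) and 2 with equal spot weights (5.51%). In 5m AS against 2m AS 1 was lower with median-of-ratios size factors (20.8%). Against the mixed library 1 was lower in Early treated 5m AS (15.3%) and 1 in Late treated 5m AS (16.5%).

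The mitosis to replication UMI ratio between libraries, which no scaling of whole libraries can change, moved with the choice of spots, genes and control. Against WT, thinned spots gave 2.27 for Early treated 5m AS, 1.62 for Late treated 5m AS and 2.87 for 5m AS. With thinned spots and with equal spot weights it was 2.34 in 5m AS against 2m AS. A minimum of 5 gave 0.755 in Early treated 5m AS and 0.519 in Late treated 5m AS against 5m AS, and 2.26 in Early treated 5m AS and 1.55 in Late treated 5m AS against WT. Against the mixed library it was 2.83 for Early treated 5m AS, 1.99 for Late treated 5m AS, 3.57 for 5m AS and 1.42 for 2m AS. None of these ratios crossed 1 under any alternative run.

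Of the other values 1688 stayed close (single genes and spot parts within their counting interval, list medians within 0.1 on the log2 scale), 366 moved and 4 changed direction. Those 4 were the log2 ratios against the mixed library of Ube2c, -0.35 in 2m AS and -0.17 in Late treated 5m AS, and of Cdkn1a, -0.13 in Late treated 5m AS, and the Cdkn1a ratio of 0.845 between the injury parts of WT without Spp1, Krt8 and Krt18. Depth limits the rare members: Bub1 had 8 UMIs in WT, and its ratio of 9.51 in 5m AS had an interval of 4.56 to 23.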
